A study of Homo sapiens with 32 samples.

Results

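The 10 genes described here encode enzymes that build, desaturate or lengthen fatty acids: the synthase FASN, the desaturases SCD, FADS1, FADS2 and FADS3, and the elongases ELOVL1, ELOVL4, ELOVL5, ELOVL6 and ELOVL7. They are 10 of the 60107 rows of the count table, and all 10 were among the 12849 genes that passed the filter on low counts. They were chosen from levels measured across wild-type and edited Caco-2 cells, because FADS2 was low in both edited lines and ELOVL4 was high in the HIF1A-null line in earlier tests of these counts. Those 2 patterns are therefore given as values with no test. Levels are CPM, library-size-scaled counts, after TMM scaling, which adjusts each library for its composition.

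Caco-2 is a human colorectal carcinoma line that forms an enterocyte-like epithelium. Wild-type (WT) cells, cells that received CRISPR/Cas9 with an empty vector (e.v.) and the HIF1A-knockout clone cl.21 were each grown in 2D wells, in HoxBan monoculture and in HoxBan co-culture with Faecalibacterium prausnitzii, a butyrate-producing gut anaerobe. HoxBan places oxygenated human cells against an anaerobic bacterial agar in 1 tube. There were 3 libraries in each group, and 4 for WT in 2D. Another 4 WT conditions have 1 library each: inulin monoculture (monoculture YCFAinul), mucin monoculture (monoculture YCFAmuc), and co-culture with stool in the presence of inulin (Poop + YCFAinul) or mucin (Poop + YCFAmuc). Both edited lines carry Cas9, which WT cells lack, and cl.21 is 1 clone, so the loss of HIF1A and the history of that clone cannot be told apart. Whether replicate libraries are separate cultures is not stated, so p-values measure only their spread, which may be technical.

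Libraries held 4144373 to 6686797 counts. HIF1A transcripts were still counted at 84.9 to 210 CPM in cl.21, against 129 to 215 in WT and 147 to 355 in e.v. The kit counts 3′ ends of transcripts and the place of the edit was not examined here, so this level is no check of the knockout. Of 14 epithelial markers 13 averaged at least 1 CPM, and their summed level was 4800 to 7450 CPM in WT, 4550 to 7250 CPM in e.v. and 3410 to 5370 CPM in cl.21, while CDX1 stayed under 1 CPM in every library. The immune markers PTPRC and CD3E and the endothelial markers VWF, CDH5 and KDR were likewise under 1 CPM throughout. Summed immune markers were at 25.5 to 49.9 CPM in e.v., 10.1 to 22.0 CPM in WT and 8.52 to 25.9 CPM in cl.21. Summed hepatocyte markers were at 11.8 to 43.8 CPM in cl.21, 6.31 to 11.6 CPM in WT and 5.19 to 28.4 CPM in e.v. libraries. Of these 4 hepatocyte markers only CPS1 averaged at least 1 CPM, and CYP3A4, CYP2E1 and TAT stayed under 1 CPM in every library. Summed fibroblast markers were at 39.1 to 57.1 CPM in cl.21, 18.6 to 50.3 CPM in WT and 23.4 to 50.2 CPM in e.v., with COL1A2 and DCN under 1 CPM in every library. The part of these marker levels in the differences between lines was not tested. The share of counts in mitochondrial genes had a median of 6.05% in 2D, 11.29% in monoculture and 14.95% in co-culture. Fewer cells of a kind and less RNA per cell cannot be told apart in these bulk libraries.

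Fatty acid synthase assembles palmitate from acetyl-CoA and malonyl-CoA. SCD then places a double bond in saturated chains to give monounsaturated ones, and the FADS desaturases act on the plant-derived essential fatty acids, FADS2 first and FADS1 after an elongation step, on the way to arachidonic acid and its omega-3 counterpart. The ELOVL enzymes catalyse the first and limiting step of each elongation round. ELOVL6 extends palmitate, ELOVL5 extends polyunsaturated chains, ELOVL1 and ELOVL7 act mainly on saturated long chains, and ELOVL4 makes the longest chains known in mammals. Many of these genes are under the sterol-regulated factors SREBP-1 and SREBP-2 and the nuclear receptor LXR.

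**Figure D1:**
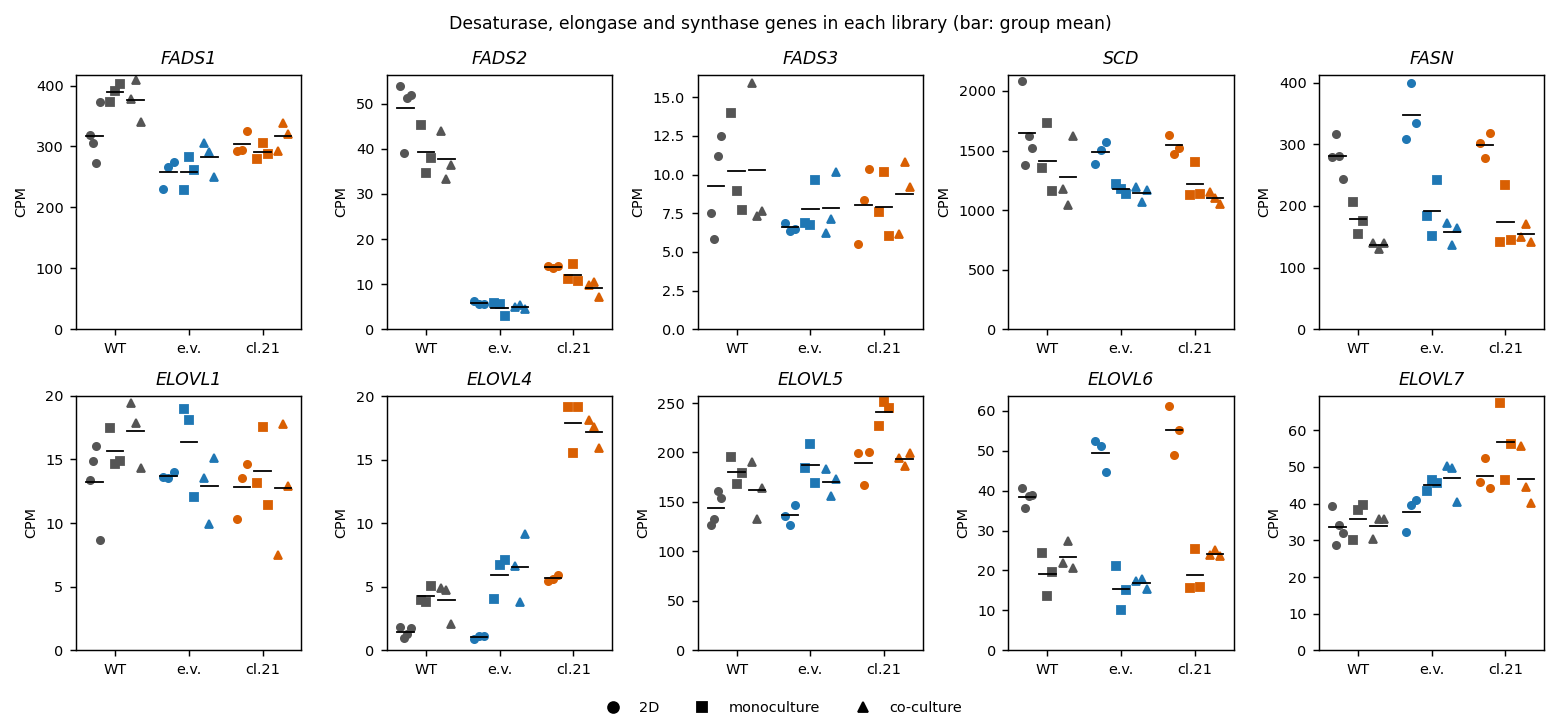
Level of each of the 10 genes in CPM (vertical axes, from 0) in the 28 replicated libraries, by cell line (horizontal axis, colour) and culture (symbol), with a bar at each group mean. FADS2 separates the lines, whereas FASN, ELOVL4 and ELOVL6 separate 2D from both HoxBan cultures within each line.

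Moving cells from 2D wells to HoxBan monoculture changed a small and recurring set of these genes. ELOVL4 rose, and FASN and ELOVL6 fell, in WT, in e.v. and in cl.21. In WT 1 of 10 genes rose and 2 fell, where 14.8% of all tested genes passed the test (6.19% higher, 8.59% lower). In e.v. 2 rose and 2 fell, with 21.6% of all genes called (10.3% higher, 11.3% lower), and in cl.21 1 rose and 2 fell, with 20.1% called (10.1% higher, 10% lower). The median log2 fold change of the 10 genes was 0.11 in WT, 0.10 in e.v. and -0.05 in cl.21, against 0.01, -0.01 and -0.02 over all genes tested.

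FASN, the synthase, stood at 280, 317, 282 and 245 CPM in the WT 2D libraries and at 206, 155 and 176 CPM in WT monoculture. The 2 groups did not overlap. In e.v. it stood at 308, 400 and 334 CPM in 2D and at 184, 151 and 243 CPM in monoculture, and in cl.21 at 302, 277 and 319 CPM in 2D and 142, 234 and 146 CPM in monoculture. Every monoculture library thus lay under every 2D library of its line. The log2 fold change was -0.66 in WT (SE 0.167, adjusted p = 0.00749, edgeR quasi-likelihood test with Benjamini-Hochberg adjustment), -0.87 in e.v. (adjusted p = 0.000874) and -0.79 in cl.21 (adjusted p = 0.00206). Without WT monoculture replicate 19 the WT value was -0.57 and its adjusted p was 0.0527, so the WT call rested on that library.

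ELOVL6, which extends the palmitate that FASN makes, was at 40.5, 35.5, 38.7 and 39.0 CPM in WT 2D and at 24.4, 13.7 and 19.6 CPM in WT monoculture. In e.v. it was at 52.4, 51.2 and 44.8 CPM in 2D and 21.0, 10.2 and 15.1 CPM in monoculture. In cl.21 it was at 61.2, 48.9 and 55.3 CPM in 2D and 15.6, 25.4 and 15.8 CPM in monoculture. All 9 monoculture libraries were under all 10 of the 2D libraries, whose lowest value was 35.5 CPM. The log2 fold change was -1.01 in WT (SE 0.203, adjusted p = 0.00116), -1.69 in e.v. (adjusted p = 5.82e-06) and -1.56 in cl.21 (adjusted p = 1.1e-05), a fall to between 2.02-fold and 3.23-fold lower levels. Across the 28 libraries ELOVL6 and FASN had a Pearson correlation of 0.8, and of 0.54 after group means were removed. These points share libraries, and the values are a description.

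ELOVL4, the elongase of the longest chains, was scarce in 2D, at 1.83, 0.947, 1.29 and 1.73 CPM in WT, on 6 to 10 counts a library. In WT monoculture it reached 4.00, 3.77 and 5.09 CPM. In e.v. it went from 0.906, 1.17 and 1.17 CPM in 2D to 4.04, 6.72 and 7.08 CPM. In cl.21 it went from 5.48, 5.61 and 5.94 CPM to 19.1, 15.5 and 19.1 CPM. The groups did not overlap within any line, and the 2D libraries of cl.21 already exceeded every monoculture library of WT. The log2 fold change for monoculture was 1.55 in WT (SE 0.331, adjusted p = 0.00204), 2.40 in e.v. (adjusted p = 3.69e-05) and 1.66 in cl.21 (adjusted p = 9.25e-05). The low counts in WT and e.v. 2D limit the precision of the first 2 values, whose 95% intervals were 0.87 to 2.22 and 1.66 to 3.15.

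Because the mitochondrial share of counts also moved with culture, these tests were repeated with that share as a covariate. ELOVL4 then changed by 1.54, 2.39 and 1.65 on the log2 scale in WT, e.v. and cl.21, ELOVL6 by -0.99, -1.65 and -1.54, and FASN by -0.67, -0.88 and -0.80, and all 9 values passed the test.

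The reference sequence before the ELOVL4 and ELOVL6 starts is shown because these elongases moved in opposite directions between the same libraries. It comes from RefSeq windows on GRCh38.p14, read 5′ to 3′ on the gene's strand, and was cut to the nearest 100 bases before the RefSeq start that no GENCODE release 29 exon covers. The 2 annotations differ for ELOVL6, whose GENCODE span runs to 110199199, so its stretch lies inside that span. Capitals mark ACGTG or GCGTG, the core letters of hypoxia response elements, and CCAAT, on either strand. The genes and letters were picked after the values were seen.
ELOVL4, chr6:79947581-79947680, minus strand: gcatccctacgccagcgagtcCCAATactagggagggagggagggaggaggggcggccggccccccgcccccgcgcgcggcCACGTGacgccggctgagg
ELOVL6, chr4:110198677-110198776, minus strand: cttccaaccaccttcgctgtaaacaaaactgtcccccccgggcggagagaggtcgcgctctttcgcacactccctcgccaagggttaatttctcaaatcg

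The ELOVL4 stretch holds CACGTG, an E-box in which ACGTG reads on both strands, and a CCAAT. The ELOVL6 stretch holds none of the marked letters, but its full RefSeq window holds ACGTG at -10 from the start, in the bases left out, and the ELOVL4 window holds a further CCAAT at -25. Both windows thus hold ACGTG. Among 35116 RefSeq windows, 18.5% held ACGTG, 6.34% CACGTG and 32% CCAAT in the 250 bases before the start, so these letters are common. The letters TCACNCCAC, a form of the sterol regulatory element, were in 0.883% of windows and in none of the windows of the 9 members that had one. FASN had no window, so these letters were not sought there. A match in letters is a description and not a site.

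**Figure D2:**
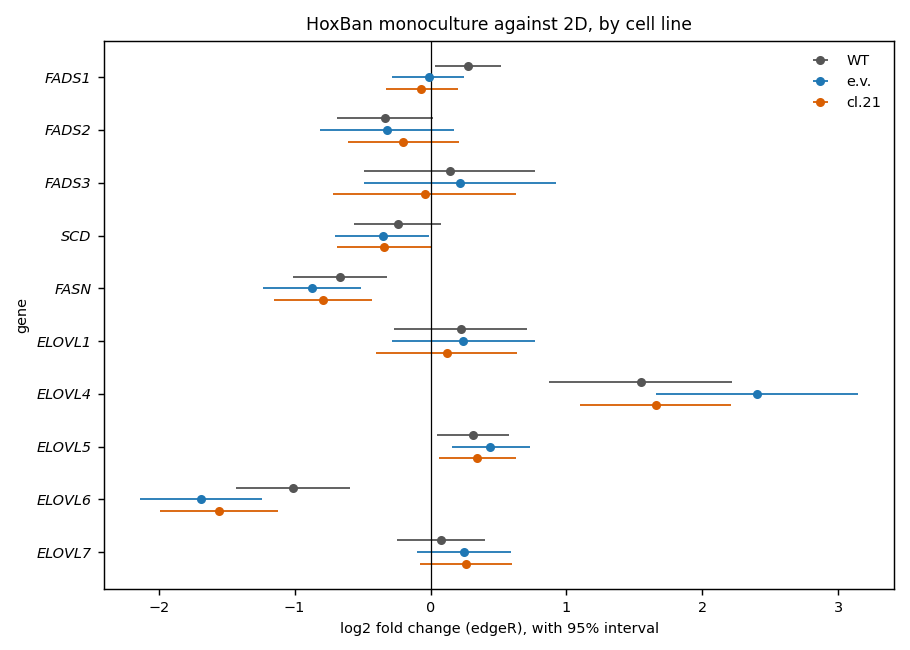
Log2 fold change of HoxBan monoculture against 2D (horizontal axis) for each gene (vertical axis) in WT, e.v. and cl.21, with 95% intervals from the edgeR fit of 28 libraries. ELOVL4 lies right of 0 and FASN and ELOVL6 lie left of 0 in all 3 lines.

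ELOVL5, the elongase of polyunsaturated chains, was at 126 to 162 CPM in WT 2D and 168 to 195 CPM in WT monoculture. In e.v. it was at 136, 126 and 147 CPM in 2D and 184, 209 and 170 CPM in monoculture. In cl.21 it was at 200, 167 and 200 CPM in 2D and 226, 251 and 245 CPM in monoculture. Monoculture libraries lay above 2D libraries in each line, but only e.v. passed the test. There the log2 fold change was 0.44 (SE 0.139, adjusted p = 0.0232), and it was 0.31 in WT (adjusted p = 0.104) and 0.34 in cl.21 (adjusted p = 0.0793). The e.v. call was lost without e.v. monoculture replicate 15 (0.35, adjusted p = 0.14), e.v. 2D replicate 23 (0.44, adjusted p = 0.0646) or e.v. 2D replicate 26 (0.38, adjusted p = 0.107). It was also lost with no filter on low counts (adjusted p = 0.175) and in a fit of only the groups compared (adjusted p = 0.0651).

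SCD, the main stearoyl-CoA desaturase of human tissues, was the most heavily counted of the 10 genes, with 4145 to 11374 counts a library. It was at 1386 to 1572 CPM in e.v. 2D against 1138 to 1218 CPM in e.v. monoculture, and at 1473 to 1632 CPM against 1126 to 1404 CPM in cl.21. In WT the range of 1376 to 2086 CPM in 2D overlapped that of 1163 to 1734 CPM in monoculture. The log2 fold changes of -0.24 in WT, -0.35 in e.v. and -0.34 in cl.21 did not pass the test (adjusted p = 0.336, 0.141 and 0.163). The 95% interval ran from -0.70 to -0.01 in e.v. and from -0.56 to 0.08 in WT.

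FADS1, FADS2, FADS3, ELOVL1 and ELOVL7 did not pass the test between monoculture and 2D in any line. FADS1, which acts after FADS2, was at 273 to 373 CPM in WT 2D and 373 to 402 CPM in WT monoculture (log2 fold change 0.27, adjusted p = 0.131). FADS2 had log2 fold changes of -0.34, -0.32 and -0.20 in WT, e.v. and cl.21 (adjusted p = 0.201, 0.371 and 0.526). FADS3, a desaturase of sphingoid bases, and ELOVL1 had 23 to 78 and 28 to 104 counts a library, so their intervals were wide. For FADS3 they ran from -0.49 to 0.77 in WT, and for ELOVL1 from -0.27 to 0.71.

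No gene passed the test for a difference between lines in its response to HoxBan monoculture. In the test of the difference between responses, 0 of the 10 members and 0 of 12849 genes (0% called) passed for e.v. against WT, cl.21 against WT and cl.21 against e.v., while 439, 531 and 180 genes had an unadjusted p below 0.05. DESeq2 called 3 genes for e.v. against WT and 0 for the others. The closest member was ELOVL6, whose fall was larger in e.v. than in WT by 0.68 on the log2 scale (95% interval -1.28 to -0.08 for the difference, unadjusted p = 0.0286, adjusted p = 0.999). The ELOVL4 rise differed by 0.86 between e.v. and WT (95% interval -0.18 to 1.90) and by 0.11 between cl.21 and WT (95% interval -0.88 to 1.11). On simulated counts the test of cl.21 against e.v. recovered 16% of 2-fold and 90% of 4-fold differences in response, so differences of these sizes could be missed. Each simulated gene had the same mean level in every group before the change. These shares therefore may not hold for ELOVL4, which was at 0.906 to 1.17 CPM in e.v. 2D.

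Adding F. prausnitzii to HoxBan gave no change past the test in any of the 10 genes. Over all genes 1.99% were called (0.817% higher, 1.18% lower) between co-culture and monoculture, averaged over the 3 lines. FASN had a log2 fold change of -0.26 (95% interval -0.47 to -0.05, unadjusted p = 0.0157, adjusted p = 0.15) and ELOVL5 of -0.18 (adjusted p = 0.213), while ELOVL6 had 0.27 (95% interval 0.01 to 0.53, adjusted p = 0.252). WT co-culture held FASN at 140, 130 and 140 CPM, under all 3 WT monoculture libraries, but the ranges overlapped in e.v. and in cl.21. In cl.21, co-culture also lay below monoculture for FADS2 (7.21 to 10.58 against 10.69 to 14.57 CPM). The same held in cl.21 for ELOVL5 (186 to 199.9 against 226.4 to 251.2 CPM). The share of all genes that separate this way was not counted, so nothing is read from these ranges. ELOVL4 differed by 0.00 (95% interval -0.35 to 0.36). In co-culture ELOVL4 stood at 4.91, 4.78 and 2.08 CPM in WT, 6.67, 3.8 and 9.16 CPM in e.v. and 18.1, 17.5 and 15.9 CPM in cl.21, above the 2D libraries of the same line throughout.

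FADS2, the desaturase of the first step, was, of the 10 genes, the one with the largest fitted difference between lines. In WT it was at 53.9, 39.1, 51.2 and 51.9 CPM in 2D, 45.2, 34.6 and 37.9 CPM in monoculture and 43.9, 33.2 and 36.4 CPM in co-culture. In cl.21 it was at 14.0, 13.6 and 14.0 CPM in 2D, 11.1, 14.6 and 10.7 CPM in monoculture and 9.85, 10.6 and 7.21 CPM in co-culture. In e.v. it was at 6.34, 5.67 and 5.68 CPM in 2D, 5.86, 5.56 and 2.83 CPM in monoculture and 4.83, 5.46 and 4.46 CPM in co-culture. The 3 lines did not overlap: every e.v. library lay below every cl.21 library and every cl.21 library below every WT library. The fitted log2 fold change against WT was -3.01 in e.v. and -1.85 in cl.21, an 8.06-fold and a 3.61-fold lower level, given here as a description because these contrasts chose the gene.

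Between the 2 edited lines the fitted FADS2 value was 1.16 higher in cl.21 on the log2 scale (SE 0.131, 2.23-fold). This too is a description, since the levels in both edited lines chose the gene. The lowest levels were in e.v., and the cause of the differences between lines was not tested.

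FADS1 and FADS2 are neighbours on chromosome 11 and their annotated bodies overlap on opposite strands. FADS1 spans 61799625 to 61829318 on the minus strand and FADS2 spans 61792980 to 61867354 on the plus strand in GENCODE release 29 on GRCh38. FADS2 also overlaps FEN1 on the same strand in that release. The RefSeq starts of FADS2 lie at 61816203 and 61816404, past the end of FEN1 at 61797244. They are 800 and 599 bases from the RefSeq start of FADS1. The strand setting of the counting is not known from the sources at hand, so reads from overlapping parts of FADS1 and FADS2 cannot be told apart.

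FADS1 was lower in both edited lines, but by far less than FADS2. It was at 229 to 305 CPM in e.v., with a median of 267, at 280 to 339 CPM in cl.21, with a median of 295, and at 273 to 409 CPM in WT, with a median of 373. Each edited line overlapped WT in 2D and lay below WT in monoculture and in co-culture. The cl.21 libraries lay above those of e.v. in 2D and overlapped them in both HoxBan cultures. The log2 fold change was -0.44 in e.v. (SE 0.073, adjusted p = 0.000185) and -0.24 in cl.21 (SE 0.073, adjusted p = 0.0294). The cl.21 call was lost without any 1 of 7 libraries, namely cl.21 2D replicates 1 and 2, cl.21 monoculture replicate 4, cl.21 co-culture replicate 17, WT co-culture replicate 20, WT 2D replicate 27 and WT monoculture replicate 29, with adjusted p = 0.0539 to 0.0639, and with no filter on low counts (adjusted p = 0.266). The count ratio of FADS1 to FADS2 within a library was 5.33 to 12.3 in WT, with a median of 8.43, 20.9 to 44.5 in cl.21, with a median of 25.3, and 36.4 to 92.5 in e.v., with a median of 51.0. It uses the values that chose FADS2 and is a description.

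**Figure D3:**
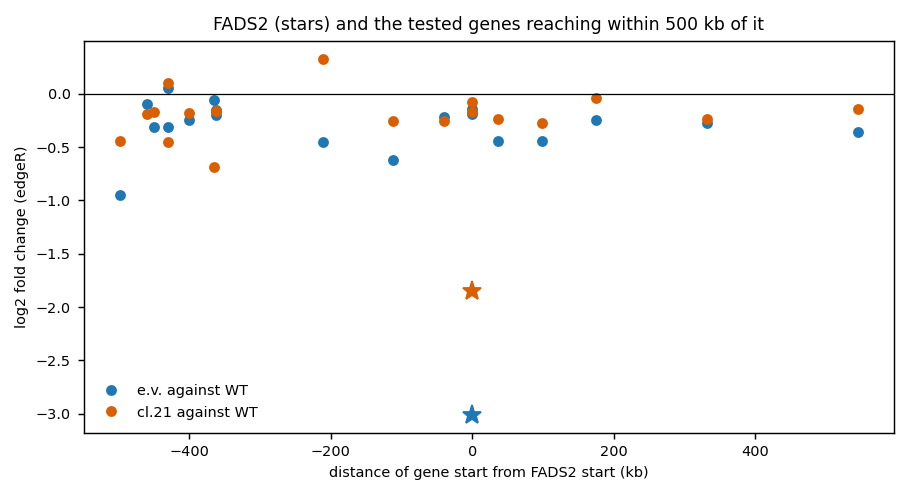
Log2 fold change of e.v. and of cl.21 against WT (vertical axis) for FADS2 (stars) and the 19 tested genes reaching within 500 kb of it. The horizontal axis is the distance of their GENCODE start from that of FADS2 in kb. FADS2 lies at -3.01 and -1.85, and the neighbours lie between -0.95 and 0.33.

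Of 19 tested genes within 500 kb of FADS2, 5 were lower and 0 higher in e.v. than in WT, with a median log2 fold change of -0.25. Over all genes 7.04% were lower and 7.53% higher, with a median of -0.02. The 5 were FADS1, the ferritin heavy chain gene FTH1 (-0.25, adjusted p = 0.0373), DDB1, ASRGL1 and VWCE (-0.95, adjusted p = 0.00561). FTH1, DDB1, ASRGL1 and VWCE were named after their values were seen. In cl.21 FADS1 was the 1 neighbour that passed, and the median was -0.18, against 6.75% lower and a median of -0.01 over all genes. FEN1, which shares bases with FADS2 in GENCODE, had -0.14 in e.v. and -0.08 in cl.21 (adjusted p = 0.586 and 0.769). The closest pattern to FADS2 over 28 libraries was that of SPON1, which encodes an extracellular matrix protein, with a Pearson correlation of log2(CPM + 1) of 0.89 among 9948 genes. TMEM176A (0.832), ZNF655 (0.83), TMEM120A (0.823) and STMN3 (0.812) followed.

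**Figure D4:**
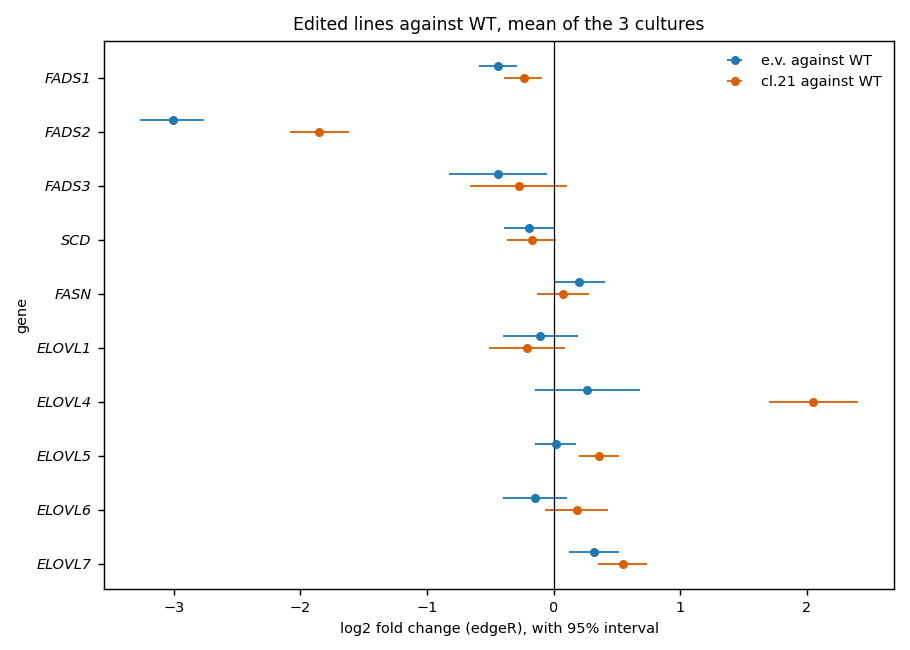
Log2 fold change of e.v. and of cl.21 against WT, averaged over the 3 cultures (horizontal axis), for each gene (vertical axis), with 95% intervals from edgeR. FADS2 is lowest in both, ELOVL4 is high in cl.21, and these points are the values that chose the genes.

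The other desaturases and the synthase did not differ between lines past the test. SCD had log2 fold changes of -0.20 in e.v. and -0.17 in cl.21 against WT (adjusted p = 0.172 and 0.241). FADS3 had -0.44 and -0.27 (adjusted p = 0.127 and 0.361), and FASN had 0.20 and 0.08 (adjusted p = 0.181 and 0.661). Apart from FADS2, 1 gene was higher and 1 lower in e.v. than in WT, where 14.6% of all genes were called (7.53% higher, 7.04% lower). Apart from FADS2 and ELOVL4, 2 were higher and 1 was lower in cl.21 than in WT, where 14.4% were called (7.68% higher, 6.75% lower). Apart from FADS2 and ELOVL4, 1 was higher in cl.21 than in e.v., where 8.75% were called (4.5% higher, 4.25% lower). The first 2 contrasts share the WT libraries, and as the genes were chosen on these contrasts nothing is read from the counts.

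ELOVL4 was high in cl.21 in every culture. In 2D its 5.48 to 5.94 CPM stood against 0.947 to 1.83 CPM in WT and 0.906 to 1.17 CPM in e.v. In monoculture 15.5 to 19.1 CPM stood against 3.77 to 5.09 and 4.04 to 7.08 CPM, and in co-culture 15.9 to 18.1 CPM against 2.08 to 4.91 and 3.8 to 9.16 CPM. No cl.21 library overlapped the other lines in the same culture. The fitted value was 2.05 against WT and 1.79 against e.v. on the log2 scale, a 4.15-fold and a 3.46-fold higher level, as a description. Between e.v. and WT, which the rule did not name, the log2 fold change was 0.26 (adjusted p = 0.421).

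No member gene overlaps ELOVL4 on chromosome 6, where it spans 79914812 to 79947580 on the minus strand. The 4 tested genes within 500 kb are TTK, BCKDHB, SH3BGRL2 and LCA5. LCA5, a cilium gene, was higher in cl.21 (0.59, adjusted p = 0.0216) and in e.v. (0.80, adjusted p = 0.00256) than in WT, and SH3BGRL2 was higher in e.v. (0.42, adjusted p = 0.00075) and had -0.10 in cl.21 (adjusted p = 0.421). Both were also higher in monoculture than in 2D in all 3 lines, as ELOVL4 was. For LCA5 the log2 fold change was 0.90 in WT, 1.49 in e.v. and 1.34 in cl.21 (adjusted p = 0.0369, 0.00104 and 0.00253). TTK, the nearest of the 4, had -0.40 in WT, -0.44 in e.v. and -0.42 in cl.21 (adjusted p = 0.0661, 0.0392 and 0.0523). BCKDHB had 0.20, 0.19 and 0.10 and did not pass. Neither TTK nor BCKDHB passed in e.v. or in cl.21 against WT. Over all genes, 6.19% in WT, 10.3% in e.v. and 10.1% in cl.21 were higher in monoculture. Against WT, 7.53% were higher in e.v. and 7.68% in cl.21. The patterns most like that of ELOVL4 over 28 libraries were those of UBAP2 (Pearson correlation 0.921), DNAJC3 (0.876), LYN (0.872), PCCA-DT (0.861) and LARP6 (0.857).

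ELOVL7 was higher in both edited lines than in WT, and ELOVL5 was higher in cl.21. ELOVL7 was at 28.7 to 39.5 CPM in WT, 32.3 to 50.4 CPM in e.v. and 40.3 to 67.5 CPM in cl.21, and no cl.21 library fell within the WT range. The log2 fold change against WT was 0.55 in cl.21 (SE 0.095, adjusted p = 0.000248) and 0.32 in e.v. (SE 0.095, adjusted p = 0.0231). The e.v. call was lost without WT co-culture replicate 3 (adjusted p = 0.0509) or WT monoculture replicate 16 (adjusted p = 0.0588), and with no filter on low counts (adjusted p = 0.105). Between cl.21 and e.v. the value for ELOVL7 was 0.23 (adjusted p = 0.152).

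ELOVL5 was at 167 to 251 CPM in cl.21, 126 to 195 CPM in WT and 126 to 209 CPM in e.v. It was higher in cl.21 than in WT by 0.36 (SE 0.078, adjusted p = 0.00225) and than in e.v. by 0.34 (SE 0.08, adjusted p = 0.0054), and the ranges overlapped WT in co-culture. It had 0.02 in e.v. against WT (adjusted p = 0.918). ELOVL1 and ELOVL6 passed in none of the 3 line contrasts. In 2D alone ELOVL6 was at 48.9 to 61.2 CPM in cl.21 and 44.8 to 52.4 CPM in e.v., above the 35.5 to 40.5 CPM of WT, but this was not tested apart from the mean over cultures.

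The single WT libraries allow levels to be set side by side, with no replicate and no test. In HoxBan on the standard medium, with or without F. prausnitzii, ELOVL4 in WT ran from 2.08 to 5.09 CPM. It was at 15.3 CPM with inulin (95% exact binomial interval 12.1 to 19.0, counting error only) and 16.0 CPM with stool and inulin (12.9 to 19.7). It was at 9.68 CPM with mucin (7.0 to 13.0) and 8.91 CPM with stool and mucin (6.31 to 12.2). All 4 intervals lay above the highest of the 6 WT HoxBan libraries. Both inulin libraries stood above both mucin libraries, and which of medium, stool or library goes with the level cannot be told apart.

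**Figure D5:**
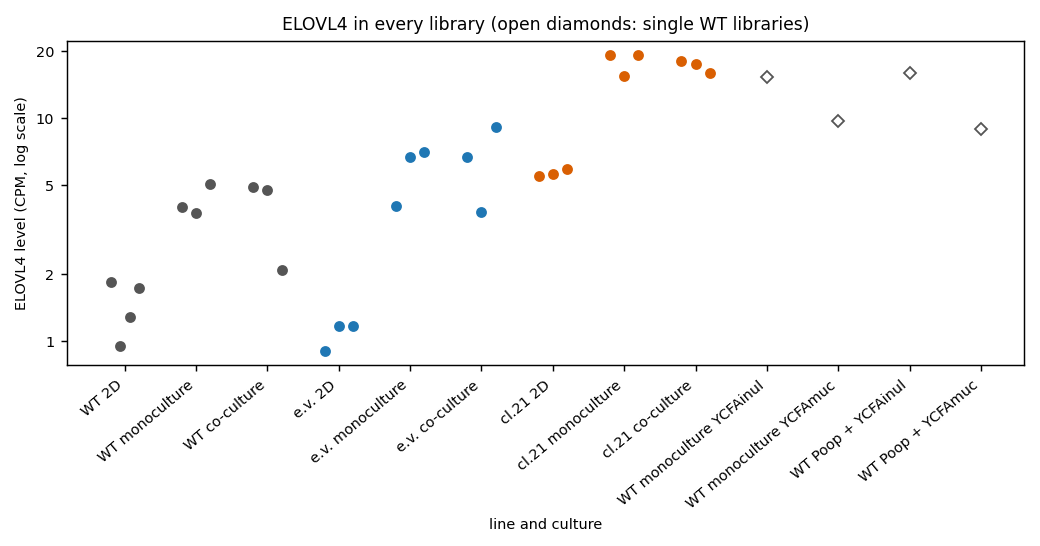
ELOVL4 level in CPM (vertical axis, log scale) in each of the 32 libraries by line and culture (horizontal axis), with open diamonds for the 4 single WT libraries. The single libraries lie at 8.91 to 16.0 CPM, above the 2.08 to 5.09 CPM of WT in HoxBan on the standard medium.

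FADS2 was within the WT HoxBan range of 33.2 to 45.2 CPM in all 4 single libraries, at 37.3 to 44.5 CPM. FADS1 was just under its WT HoxBan range of 341 to 409 CPM in all 4, at 323 to 337 CPM. FASN was at 119 CPM with stool and inulin (110 to 128), under the WT HoxBan range of 130 to 206 CPM, and within it in the other 3. ELOVL7 was at 40.5 CPM with stool and inulin, just above its range of 30.0 to 39.5 CPM, and ELOVL1 was at 13.1 CPM with inulin and 14.1 CPM with stool and mucin, just under 14.4 to 19.4 CPM. ELOVL6 was at 12.4 CPM with stool and inulin and 13.1 CPM with mucin, against 13.7 to 27.4 CPM, and both intervals reached into that range. SCD, FADS3 and ELOVL5 were within range in all 4.

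The enzymes around these genes were read from 11 lists of 130 genes, of which 109 were tested. In monoculture against 2D, 3 of 109 rose and 7 fell in WT, 9 rose and 18 fell in e.v., and 13 rose and 12 fell in cl.21, so 9.17%, 24.8% and 22.9% passed, against the 14.8%, 21.6% and 20.1% over all genes. None of the 5 tested elongation cycle partners (HSD17B12, the HACD dehydratases and TECR) passed in any line. Of 15 genes of acetyl-CoA, malonyl-CoA and NADPH supply, 1 fell in WT, 3 in e.v. and 2 in cl.21, and 0 rose. Of 9 genes of peroxisomal chain shortening, 0, 3 and 2 fell and 0 rose. Over all genes 8.59%, 11.3% and 10% fell. Among 5 other members of the desaturase and elongase families, ELOVL3 rose in all 3 lines, by 2.43 in WT, 2.15 in e.v. and 4.22 in cl.21 on the log2 scale (adjusted p = 0.0189, 0.00674 and 3.84e-05). ELOVL3, an elongase of saturated chains known from brown fat and skin, is named although its mean was under 5 CPM, and it was at 0 to 0.576 CPM in WT 2D and 1.43 to 1.88 CPM in WT monoculture. Its WT call was lost without WT 2D replicate 8 or 12 or WT monoculture replicate 19 (adjusted p = 0.0555, 0.0565 and 0.0599). DEGS1, a dihydroceramide desaturase, rose in e.v. (0.78, adjusted p = 0.00121) and had 0.12 in WT and 0.32 in cl.21 (adjusted p = 0.673 and 0.168).

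Among 18 tested regulators of the SREBP and LXR pathways, SREBF1, which encodes SREBP-1, rose in cl.21 (0.60, adjusted p = 0.0256) and had 0.36 in WT and 0.09 in e.v. (adjusted p = 0.187 and 0.769). SREBF2 did not pass in any line (-0.33, -0.33 and -0.27, adjusted p = 0.164, 0.164 and 0.276). MYLIP, an LXR target that degrades the LDL receptor, rose in all 3 lines, by 1.5, 1.54 and 2.12. RXRA, the partner of LXR and PPAR receptors, fell in all 3, by 1.07, 1.5 and 1.46 on the log2 scale. ABCA1, also an LXR target, fell in WT and e.v. (-1.09 and -1.82) and had -0.92 in cl.21 (adjusted p = 0.0525). Thus MYLIP and ABCA1 went in opposite directions in WT and e.v., and LXR activity was not tested.

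Of 6 tested fatty acid sensing receptors and coactivators, PPARA, the receptor that drives fatty acid oxidation, fell in all 3 lines, by 1.21, 2.15 and 1.64 on the log2 scale (adjusted p = 0.0217, 0.000428 and 0.00312). Its coactivator PPARGC1B fell in WT and e.v. (-1.24 and -1.87) and had -0.82 in cl.21 (adjusted p = 0.0742). PTGS2, the cyclooxygenase that uses arachidonic acid, rose in e.v. (2.07) and cl.21 (2.66) and had 1.20 in WT (adjusted p = 0.0735). UGCG, which uses ceramides, rose in e.v. (1.14) and cl.21 (0.90) and had 0.56 in WT (adjusted p = 0.0759). AGPAT3, an acyltransferase of phospholipid synthesis, fell in all 3 lines (-0.76, -0.96 and -0.93).

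Of 109 listed genes, 10 were higher and 9 lower in e.v. than in WT (17.4% passed), 7 higher and 14 lower in cl.21 than in WT (19.3%), and 6 higher and 8 lower in cl.21 than in e.v. (12.8%), against 14.6%, 14.4% and 8.75% over all genes. INSIG1, which retains SREBP in the endoplasmic reticulum, was at 91.7 to 140 CPM in WT, 22.3 to 44.8 CPM in e.v. and 0 to 2.32 CPM in cl.21, with 0 counts in 2 cl.21 co-culture libraries. The 3 lines did not overlap, and a link between the INSIG1 and FADS2 levels was not tested. INSIG1 was lower in e.v. by 1.84 on the log2 scale (adjusted p = 1.73e-08) and in cl.21 with adjusted p = 6.85e-18, while SREBF1 and SREBF2 passed in neither line. INSIG2 had -0.12 in e.v. and -0.42 in cl.21 (adjusted p = 0.755 and 0.181). SCD5, a second stearoyl-CoA desaturase, was higher in cl.21 by 1.71 (adjusted p = 5.61e-06) and had 0.08 in e.v. (adjusted p = 0.856). MBOAT2, which loads monounsaturated chains onto lysophospholipids, was higher in cl.21 by 1.55 and in e.v. by 0.55 (adjusted p = 1.18e-08 and 0.0097). CYB5A, a cytochrome that hands electrons to desaturases, was higher in both, by 0.27 in cl.21 and 0.32 in e.v. (adjusted p = 0.0238 and 0.00628).

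Between co-culture and monoculture 1 of 109 listed genes passed (0.917%, against 1.99% over all genes), the ubiquitin ligase gene RNF139, which was lower.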

How the data were processed

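RNA from Caco-2 cells was sequenced with the QuantSeq 3′ kit, and the authors deposited counts per Ensembl gene for 32 libraries, made on GRCh38 per the labels. Aligner, counting tool, strand setting and annotation: not given in the sources used here. Symbols were matched by Ensembl identifier for 56104 rows in a name table and for 427 more in GENCODE release 29. Unnamed rows held 0.0679% of counts. Reads carry no molecular identifiers, so intervals on counts cover counting error only.

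The 28 libraries of 9 replicated groups were fitted together (edgeR 4.0.16 in R 4.3.3, TMM factors of 0.861 to 1.18, filterByExpr, 12849 genes, 19 residual degrees of freedom, BCV 0.201). Contrasts were tested by the quasi-likelihood test, two-sided, with Benjamini-Hochberg adjustment over all genes and a threshold of 0.05. Intervals use the quasi-likelihood standard error and the t distribution.

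Members, lists and tests were chosen with earlier results of these data known. Named were the 10 members, HIF1A, SREBF1, SREBF2, INSIG1 and INSIG2, up to 4 genes of each list that passed and averaged 5 CPM or more, the 5 genes most like FADS2 and ELOVL4, and their nearest neighbours within 500 kb. Exceptions, chosen with values in view, are ELOVL3, the promoter stretches with their motifs, and 4 neighbours of FADS2. The list genes named are only a part of those that passed, and some lists are given as counts alone. The alternatives run were DESeq2 1.42.0, median-ratio factors, no low-count filter, only the groups compared, the mitochondrial share as a covariate, and leaving out each library in turn. On simulated counts for monoculture against 2D in WT (12582 genes), 55% of genes changed 2-fold and 99% of those changed 4-fold were recovered. For the difference of responses between cl.21 and e.v. (12595 genes) these were 16% and 90%, and for cl.21 against e.v. 92% and 100%. The share of calls that were false was 7.78%, 5.36% and 5.42% in the 3 simulated comparisons, in this order. Sequences came from RefSeq promoter windows, which covered 9 of the 10 members, all but FASN.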

Additional observations from a re-analysis of the deposited data

Results flagged for a closer look

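ELOVL4 was flagged in data outside the comparisons, because its counting interval in each of the 4 single WT libraries lay above all 6 WT libraries in HoxBan on the standard medium (highest 5.09 CPM). It was at 15.3 CPM in monoculture YCFAinul, 16.0 CPM in Poop + YCFAinul, 9.68 CPM in monoculture YCFAmuc and 8.91 CPM in Poop + YCFAmuc. Each condition is 1 library, and whether medium, stool or the library accounts for the level was not tested. In WT 2D, the 1 group large enough to search for a distant library, none was found for any of the 10 genes.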

How the results depend on the processing

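No paired analysis was possible because each library has a number of its own and no number is shared between groups. Depth limits the genes with few counts, ELOVL4 in 2D, FADS2 in e.v., FADS3 and ELOVL1. For the 10 genes and ELOVL3, 532 of 546 values under the alternatives kept their direction and their side of the threshold, as did 2973 of 3080 with 1 library left out. For the contrasts that chose FADS2 and ELOVL4, a shift smaller than the SE was asked for in place of the threshold. Values far from the threshold count as kept, so these shares say little about the calls. ELOVL4 and ELOVL6 kept their calls between monoculture and 2D in all 3 lines under every alternative run and without any 1 library, and FASN did so except in WT without WT monoculture replicate 19 (-0.57, adjusted p = 0.0527). Passing under an alternative but not in the main test were ELOVL5 in cl.21 monoculture (adjusted p = 0.0492 with the mitochondrial share, 0.0348 with DESeq2), FADS1 in cl.21 against e.v. (adjusted p = 0.0455 with DESeq2) and ELOVL6 in cl.21 against e.v. without e.v. monoculture replicate 11 (0.42, adjusted p = 0.0259). The cause of these changes was not tested.

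Counts of all genes called moved by over 1.5 times as follows. With the mitochondrial share as a covariate, monoculture against 2D in WT went from 1899 to 2913 and co-culture against monoculture from 256 to 1414. With no filter on low counts, co-culture gave 482, and the differences of responses, all 0 in the main test, gave 29 (e.v. minus WT), 27 (cl.21 minus WT) and 4 (cl.21 minus e.v.). DESeq2 gave 633 for co-culture and 3 for e.v. minus WT, and a fit of only the groups compared gave 19 for co-culture. With 1 library left out, monoculture against 2D ran from 1062 to 2048 in WT (1062 without WT monoculture replicate 29), 1732 to 2944 in e.v. (1732 without e.v. monoculture replicate 15) and 1656 to 2781 in cl.21 (1656 without cl.21 monoculture replicate 24). The differences of responses ran from 0 to 2 for e.v. minus WT (1 without WT 2D replicate 8, 2 without e.v. monoculture replicate 11) and stayed at 0 for the others. Line contrasts ran from 1362 to 2406 (e.v. against WT), 1430 to 2099 (cl.21 against WT) and 925 to 1188 (cl.21 against e.v.). Co-culture ran from 44 to 957. It was 95 without WT monoculture replicate 16, 130 without 19, 118 without e.v. monoculture replicate 15, 127 and 102 without cl.21 monoculture replicates 4 and 24, 105, 64 and 690 without WT co-culture replicates 3, 20 and 28, 957, 44 and 56 without e.v. co-culture replicates 14, 18 and 22, and 510 and 57 without cl.21 co-culture replicates 17 and 21.

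The sign changed in 97 values over 27 of 110 pairs of gene and comparison, and in none of them did either fit pass the test. Under the alternatives, FADS1 in e.v. monoculture came to 0.018 and 0.019 (median-ratio factors, DESeq2), FADS3 in cl.21 monoculture to 0.087 (mitochondrial share), and, with no filter, ELOVL5 to -0.002 for cl.21 minus WT, SCD and ELOVL7 each to -0.022 for cl.21 minus e.v., and ELOVL4 to -0.004 for co-culture. The ranges of these pairs with 1 library left out follow, as log2 fold changes. For monoculture in WT, ELOVL7 ran from -0.009 to 0.186 and FADS3 from -0.171 to 0.314. For monoculture in e.v., FADS1 ran from -0.094 to 0.069. For monoculture in cl.21, ELOVL1 ran from -0.049 to 0.236 and FADS3 from -0.251 to 0.188. For co-culture, ELOVL3 ran from -0.168 to 0.09, ELOVL4 from -0.105 to 0.105 and FADS3 from -0.076 to 0.183. Between e.v. and WT, ELOVL5 ran from -0.024 to 0.057. Between cl.21 and WT, FASN ran from -0.007 to 0.119. Between cl.21 and e.v., SCD ran from -0.006 to 0.044. For the response of e.v. minus WT, ELOVL1 ran from -0.101 to 0.195, ELOVL3 from -0.845 to 0.134, FADS2 from -0.162 to 0.276, FADS3 from -0.109 to 0.385 and SCD from -0.249 to 0.059. For the response of cl.21 minus WT, ELOVL1 ran from -0.272 to 0.052, ELOVL4 from -0.027 to 0.285, ELOVL5 from -0.067 to 0.094, FADS3 from -0.39 to 0.128 and SCD from -0.236 to 0.072. For the response of cl.21 minus e.v., ELOVL6 ran from -0.11 to 0.424, ELOVL7 from -0.13 to 0.15, FADS1 from -0.137 to 0.027, FADS2 from -0.143 to 0.294, FASN from -0.175 to 0.275 and SCD from -0.082 to 0.067.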

Other observations

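ELOVL3, which shared with ELOVL4 a rise in monoculture in all 3 lines, was at 4.44 CPM in the single WT library of monoculture YCFAinul, 4.14 CPM in Poop + YCFAinul, 2.93 CPM in monoculture YCFAmuc and 2.35 CPM in Poop + YCFAmuc, against 0.926 to 2.77 CPM in the 6 WT HoxBan libraries on the standard medium. The 95% counting intervals of the inulin libraries were 2.82 to 6.66 and 2.63 to 6.22 CPM, so the second reached into that range. SREBF1 was at 16.9 CPM in Poop + YCFAinul and 17.6 CPM in Poop + YCFAmuc, under the WT HoxBan range of 19.4 to 25.4 CPM, and at 20.9 and 20.3 CPM in the 2 single monocultures. Across the 28 replicated libraries ELOVL4 and ELOVL5 had a Pearson correlation of 0.8, which was 0.07 after group means were removed, and FADS1 and FADS2 had 0.71, which was 0 after group means were removed. These points share libraries and are descriptions.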
